A study of Homo sapiens with 4 samples.

Results

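Besides the glutathione peroxidase GPX4, cells hold several routes that limit the lipid peroxidation behind ferroptosis, and the transcripts of 10 genes of these routes were examined: *AIFM2*, *PDSS1*, *COQ2*, *DHODH*, *GCH1*, *PTS*, *SPR*, *VKORC1L1*, *MBOAT1* and *MBOAT2*. The rule names them for their roles and uses no measured value, though it was written with earlier results of these data known, and all 10 were among the 28278 genes of the count table. Polyadenylated RNA was sequenced from cells labelled HepG2, a line of human hepatocellular carcinoma cells, that carried a Cas9 lentivirus with either a control sgRNA or an sgRNA against *USP22*, the deubiquitinase of the SAGA complex. All cells were treated with Sorafenib, a multikinase inhibitor used against liver cancer, for 24 h, so no untreated cells enter the comparison. Each group had 2 libraries, made from a stably infected population with 1 guide design, and the labels do not say whether the 2 came from separate cultures, so p-values measure the spread between these libraries, which may be technical.

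These routes share a principle, which is to keep a lipid-soluble radical trap in its reduced form or to make the membrane harder to oxidise. FSP1, the protein of *AIFM2*, reduces coenzyme Q and vitamin K with NAD(P)H, DHODH reduces coenzyme Q in the inner mitochondrial membrane, and GCH1 opens the synthesis of the radical trap tetrahydrobiopterin (BH4). MBOAT1 and MBOAT2 place monounsaturated fatty acids, which resist peroxidation, into phospholipids. The liver stores iron, on which this peroxidation depends, and ferroptosis is studied as a way to kill liver cancer cells.

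The libraries held between 62030307 and 64728272 counts, and 3 counts, the most that a count of 0 allows, equal 0.0463 to 0.0484 CPM (the count of a gene relative to its library's total, the unit used throughout) before scaling, for counting error only. *USP22* itself was counted 16450 and 16537 times in control and 20279 and 20368 times in the libraries labelled *USP22* knockout, or 0.22 higher on the log2 scale (standard error, SE, 0.034, adjusted p = 0.000394), so its transcript was higher where the label says knockout and every direction follows the label. The study checked the knockout in its cells by Western blot, and these counts do not measure protein. The counts went against the labelled cell line, whose known hepatocyte genes were absent or nearly so. The identity of the cells as HepG2 is therefore in doubt, and the name is used below only as a label. All 12 hepatocyte markers stayed at 19 counts or fewer in every library, 7 of them at 0 throughout, among them *ALB*, *APOA1*, *APOB*, *TTR* and *AHSG*, and their summed level was 0.197 to 0.305 CPM in control and 0.294 to 0.502 CPM in knockout libraries. Of 4 epithelial markers, *KRT8* and *KRT18* were abundant but fell by 0.37 and 0.43 on the log2 scale (adjusted p = 1.25e-05 and 4.89e-06). *CDH1* was at 0 and *EPCAM* had at most 4 counts. The sum was 1760 to 1790 CPM in control and 1310 to 1370 CPM in knockout libraries. Of 6 stromal markers, *DCN* and *LUM* rose past 1.5-fold and *PDGFRB* fell. *COL3A1*, which held most of the sum, rose by 0.19 on the log2 scale (adjusted p = 0.0007). *COL1A1* did not pass the test (0.11, adjusted p = 0.175) and *COL1A2* had at most 7 counts. The stromal sum went from between 641 and 645 CPM in control to between 900 and 901 CPM in knockout libraries. Of 4 blood cell markers only *CD68*, a lysosomal protein, was above 4 counts, and it fell. The part of these markers in the results below was not tested.

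All 10 defence genes passed the filter on low counts, and 15150 genes were tested. At an adjusted p-value below 0.05, *GCH1* rose and *AIFM2*, *SPR* and *MBOAT2* fell, or 4 of 10 genes, against 52.5% of all tested genes (26.8% higher and 25.8% lower). With the fold change of at least 1.5 that the study also required, *MBOAT2* alone was called lower, against 7.25% of all tested genes, and 0 of 10 were called higher, against 8.88%. The median log2 fold change of the 10 genes was -0.11, and that of all tested genes was 0.00091. For 7 of the 10 genes the groups were apart, against 75.9% of all genes. These shares were not above the background of the libraries, in which changes were widespread.

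**Figure D1:**
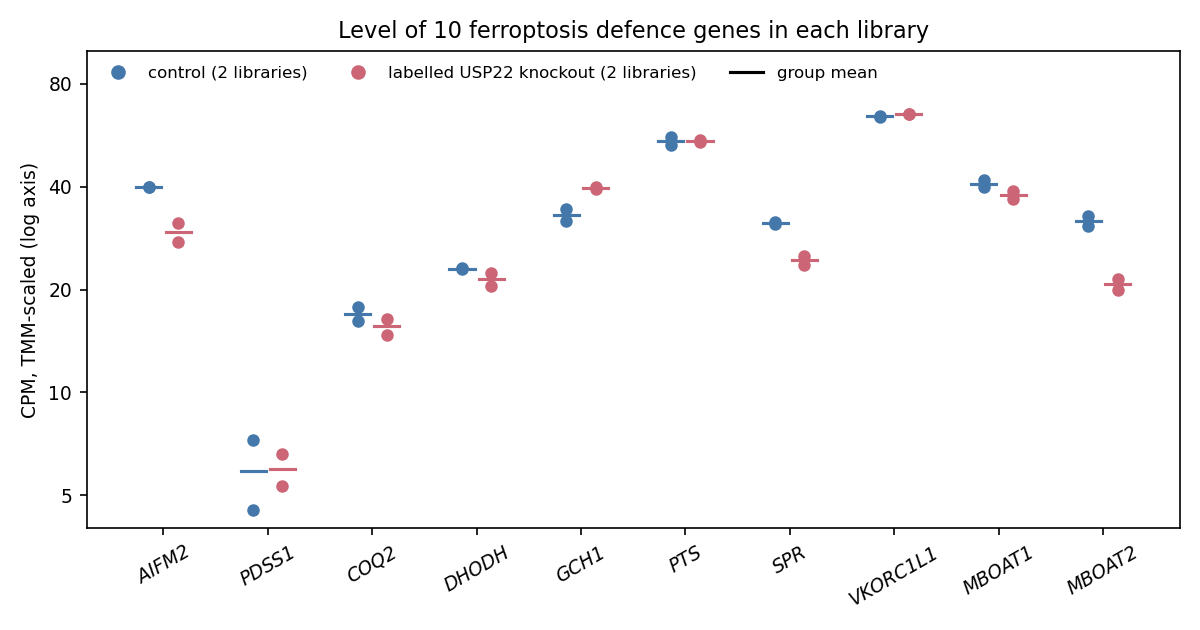
Level of each of the 10 genes in each library, in CPM scaled with TMM factors, on a log axis. Dots are libraries (2 control, 2 labelled *USP22* knockout) and bars are group means. *AIFM2*, *SPR* and *MBOAT2* lie lower and *GCH1* higher in both knockout libraries, while the 2 control libraries of *PDSS1* lie at 7.23 and 4.52 CPM, on either side of both knockout libraries.

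*AIFM2* encodes FSP1, the NAD(P)H-dependent reductase that regenerates ubiquinol and vitamin K hydroquinone at membranes. GENCODE places it on chromosome 10 (hg38, minus strand) between 70098223 and 70132934, and its canonical transcript has 9 exons and 3134 nucleotides. It had 39.8 and 39.9 CPM in the control libraries and 31.4 and 27.6 CPM in the knockout libraries. The groups did not overlap, and the knockout libraries were further apart than the control libraries. *AIFM2* fell by 0.43 on the log2 scale (SE 0.073, adjusted p = 0.000692), to a level 0.741 times that of control, which did not reach the 1.5-fold threshold. An antisense neighbour, *MACROH2A2*, overlaps the end of the gene but had at most 6 counts in any library, so it could add few reads. The 250 bases before the RefSeq start of *AIFM2*, at chr10:70132826-70133075 on the minus strand of GRCh38.p14, are shown because they hold a match to the core of the antioxidant response element, TGACNNNGC, the element read by NRF2. The match, on the reverse strand, begins 22 bases before the start, and it and a GC box (GGGCGG, reverse strand) are in capitals. Some annotated transcripts of the gene begin within this stretch. The GENCODE start lies there too, so the match and the GC box fall inside the gene as placed above.
*AIFM2*: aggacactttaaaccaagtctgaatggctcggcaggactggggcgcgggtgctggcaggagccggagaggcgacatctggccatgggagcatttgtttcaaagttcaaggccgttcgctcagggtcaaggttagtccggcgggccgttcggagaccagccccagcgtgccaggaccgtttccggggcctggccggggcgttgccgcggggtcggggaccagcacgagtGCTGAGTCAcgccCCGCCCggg
Of 35116 RefSeq promoters of this length, 10.9% hold TGACNNNGC and 42.6% hold GGGCGG on either strand. The match is a description of the letters, and binding was not measured.

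*AIFM2* lies on the long arm of chromosome 10, where most genes were lower in the knockout libraries. The 72 tested genes that start within 5 Mb of it had a median of -0.41 (log2 fold change, interquartile range -0.64 to -0.14), and 60 of them were below 0. Of these 72 genes 22 were called lower and 2 higher. *AIFM2* itself differed from this median by -0.024, and 35 of the 72 neighbours were lower than it. The sign of this difference depended on the setting. With trends on GC content and length removed *AIFM2* had -0.36 beside a median of -0.50. With DESeq2 it had -0.43 beside -0.47, and with library size alone -0.38 beside -0.36. Of the 3 nearest tested genes on either side, *TYSND1*, a peroxisomal protease gene 0.0138 Mb away, fell by 1.04 on the log2 scale, *SAR1A* fell by 0.37 and *PPA1* fell by 0.38. On the other side *FAM241B* fell by 0.89, *TSPAN15* had a log2 fold change of -0.40 (adjusted p = 0.0558) and the scarce *COL13A1* one of 0.76 (adjusted p = 0.305). *PDSS1* lies on the other arm of the same chromosome, where the 31 tested genes within 5 Mb had a median of 0.23 and 8 of them were below 0. A change of *AIFM2* and a change of its region cannot be told apart in these libraries.

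**Figure D2:**
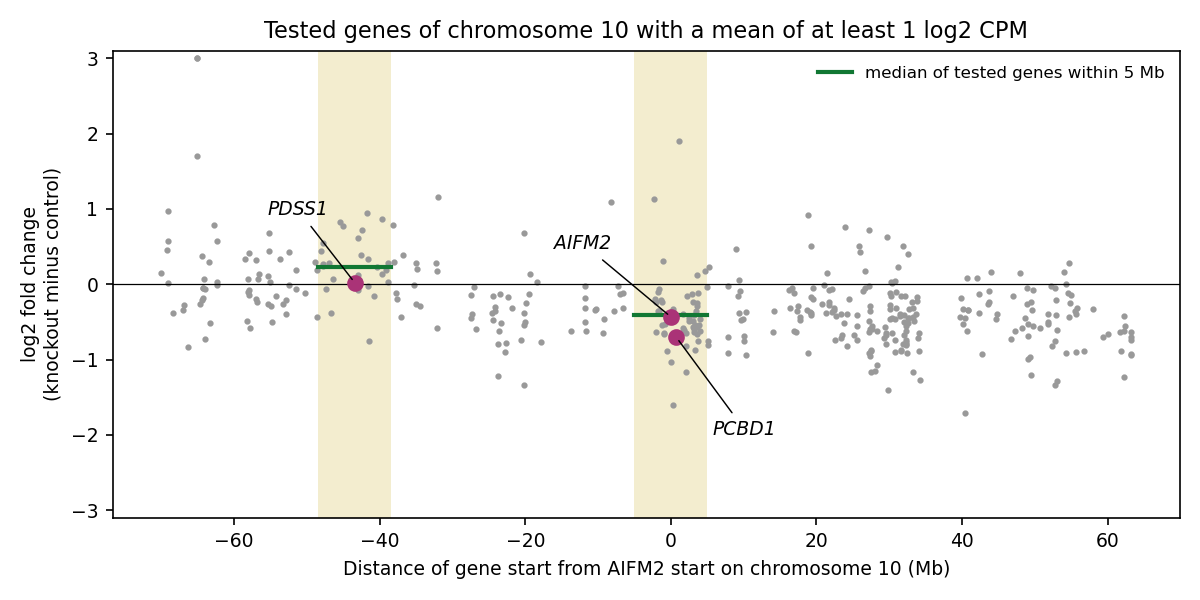
Log2 fold change (knockout minus control) of 428 tested genes of chromosome 10 with a mean of at least 1 log2 CPM, against the distance of their start from that of *AIFM2* in Mb; 2 genes beyond 3 are drawn at 3 or -3. Green bars mark the medians of the tested genes within 5 Mb of *AIFM2* (-0.41) and of *PDSS1* (0.23), shaded windows their extent, and large dots mark *PDSS1*, *AIFM2* and *PCBD1*.

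Coenzyme Q is the substrate of FSP1 and DHODH, and its synthesis begins with PDSS1, which with PDSS2 builds the polyprenyl tail, and with COQ2, which joins the tail to the ring. *PDSS1* (chromosome 10, 26697701 to 26746798) was the least abundant of the 10 genes by CPM and the most variable, with 7.23 and 4.52 CPM in control and 6.60 and 5.31 CPM in knockout libraries. Its log2 fold change was 0.021 with a 95% interval from -0.45 to 0.50, and a difference within that interval was not detectable with these replicates. The last 206 bases of *PDSS1* overlap *ABI1* on the opposite strand, a gene with 2666 to 3035 counts, and the strand setting of the counting is not given, so reads of the overlap cannot be assigned to one of them. *COQ2* (chromosome 4, 83261536 to 83284914) had 16.1 and 17.8 CPM in control and 16.4 and 14.7 CPM in knockout libraries, with a log2 fold change of -0.12 (95% interval -0.34 to 0.096). The groups overlapped for both genes.

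Of the 13 other genes of coenzyme Q synthesis and transport, 2 rose, 4 fell and 7 did not pass the test, so that 46.2% passed against 52.5% of all tested genes, with a median log2 fold change of -0.13. The 2 that rose were also the 2 called at 1.5-fold. *STARD7*, which carries coenzyme Q and phosphatidylcholine between membranes, had 55.7 and 60.3 CPM in control and 126 and 128 CPM in knockout libraries, a level 2.2 times that of control (log2 fold change 1.14, SE 0.048, adjusted p = 1.17e-07). *HPDL*, an enzyme in the supply of the ring precursor, had 14.5 and 16.3 CPM against 24.6 and 25.1 CPM, a level 1.61 times that of control (log2 fold change 0.69, SE 0.088, adjusted p = 0.000116). For both genes each knockout library lay above each control library by more than the replicates differed. The 4 that fell were *PDSS2*, the partner of *PDSS1*, and *COQ4*, *COQ6* and *COQ9*. *PDSS2* went from 59.0 ± 0.0950 to 46.3 ± 0.46 CPM (SD, n = 2). *COQ4*, *COQ6* and *COQ9* fell by 0.40, 0.24 and 0.31 on the log2 scale. *COQ6* no longer passed without control replicate 1 (adjusted p = 0.117), control replicate 2 (0.109) or knockout replicate 1 (0.145), nor on all libraries with DESeq2 (0.119), library size alone (0.0996) or no filter (0.0655). *COQ4* had -0.19 (adjusted p = 0.0719) and *COQ9* -0.19 (adjusted p = 0.00657) with the trends on GC content and length removed. *COQ8B* was the 1 further gene with a fold change above 0 (0.21, adjusted p = 0.0686), and it passed with GC and length trends removed (0.38, adjusted p = 0.00567) and with library size alone (0.26, adjusted p = 0.0286). The remaining 6 lay between -0.20 and -0.046. Of these, *COQ10B* had -0.19 with the trends removed (adjusted p = 0.0198), *COQ7* passed without control replicate 2 (-0.33, adjusted p = 0.045), and *COQ8A* passed without knockout replicate 1 (-0.20, adjusted p = 0.0291) and among genes with a mean of 50 counts or more (adjusted p = 0.0434).

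*DHODH* (chromosome 16, 72008588 to 72027664) oxidises dihydroorotate to orotate in pyrimidine synthesis and passes the electrons to coenzyme Q. It had 23.0 and 23.1 CPM in control and 20.5 and 22.3 CPM in knockout libraries, and its log2 fold change of -0.11 (95% interval -0.29 to 0.073) did not pass the test although the groups did not overlap. The next enzyme of the route, *UMPS*, which turns orotate into uridine monophosphate, rose from 18.9 and 17.9 CPM to 33.7 and 33.5 CPM, a level 1.83 times that of control (log2 fold change 0.87, SE 0.072, adjusted p = 7e-06). *CAD*, which makes the substrate of DHODH, had a log2 fold change of 0.081 (adjusted p = 0.0989), and of 0.13 with library size alone (adjusted p = 0.0108). Other dehydrogenases also reduce coenzyme Q in mitochondria. Of 5 such genes 4 were tested, of which *GPD2*, the glycerol-3-phosphate dehydrogenase, rose by 0.24, *SQOR*, the sulfide oxidoreductase, fell by 0.13, and *ETFDH* (0.014) and *CHDH* (0.28, adjusted p = 0.156) did not pass the test. *PRODH* was listed at 0 in all 4 libraries. With trends on GC content and transcript length removed from the counts, *GPD2* (0.0053) and *SQOR* (-0.080) no longer passed the test, and *SQOR* also lost it with any 1 library left out (adjusted p 0.107 to 0.18), with the replicate block (0.0731), with DESeq2 (0.132) and with library size alone (0.215).

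The 3 enzymes that make BH4 from GTP went different ways. *GCH1* (chromosome 14, 54842008 to 54902826), which catalyses the first and rate-limiting step, was counted 1942 and 2143 times in control and 2629 and 2547 times in knockout libraries, or 33.1 ± 1.77 and 39.7 ± 0.391 CPM (SD, n = 2). Both knockout libraries lay above both control libraries, and *GCH1* rose by 0.26 on the log2 scale (SE 0.062, adjusted p = 0.00537), a level 1.2 times that of control. The 57 tested genes within 5 Mb of *GCH1* had a median of 0.18, with 14 of them below 0. *GCH1* differed from this median by 0.085, and 34 of the 57 were lower than it. Over the settings run on all libraries the median around *GCH1* ranged from 0.0083 to 0.23. With GC and length trends removed *GCH1* rose by 0.19 (adjusted p = 0.0345). *PTS* (chromosome 11, 112226367 to 112269955), the second enzyme, had 55.9 and 53.1 CPM against 54.7 and 54.2 CPM, and its log2 fold change of -0.0013 had a 95% interval from -0.11 to 0.11. *SPR* (chromosome 2, 72887382 to 72892158), the sepiapterin reductase of the final steps, had 31.1 and 31.6 CPM against 25.1 and 23.6 CPM. It fell by 0.36 on the log2 scale (SE 0.070, adjusted p = 0.0016), to 0.777 times the control level, and the groups did not overlap. With GC and length trends removed its log2 fold change was -0.19 (adjusted p = 0.0369). The 250 bases before its RefSeq start, at chr2:72887158-72887407 on the plus strand, are shown for comparison with those of *AIFM2*. They hold 4 GC boxes (in capitals, both strands, of which a pair share a base) and no TGACNNNGC. The GENCODE start of *SPR* lies within this stretch, after the GC boxes.
*SPR*: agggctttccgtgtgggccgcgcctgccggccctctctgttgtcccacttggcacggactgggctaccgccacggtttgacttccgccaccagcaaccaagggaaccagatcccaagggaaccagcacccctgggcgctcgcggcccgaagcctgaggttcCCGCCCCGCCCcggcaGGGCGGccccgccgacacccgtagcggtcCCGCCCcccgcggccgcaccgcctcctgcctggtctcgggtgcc
Of 5 further genes of BH4 recycling and control, 1 fell and 4 did not pass the test. *PCBD1*, the dehydratase that recycles BH4, had 42.2 and 42.7 CPM in control and 26.3 and 25.8 CPM in knockout libraries, a level 0.614 times that of control (log2 fold change -0.70, SE 0.060, adjusted p = 8.56e-06). It starts near *AIFM2* on chromosome 10, and the 76 tested genes within 5 Mb of it had a median of -0.41, from which it differed by -0.29. Of these 76 genes 14 were lower than *PCBD1*, and its difference from its region was not tested. With GC and length trends removed *PCBD1* was no longer past 1.5-fold (-0.58, adjusted p = 4.21e-05), and the median around *AIFM2* was then -0.50. *GCHFR*, the feedback regulator of GCH1, had a log2 fold change of -0.040 (adjusted p = 0.745), *QDPR*, which also recycles BH4, had one of -0.15 (adjusted p = 0.153; 0.0479 without knockout replicate 1), and *PCBD2*, the paralog of *PCBD1*, one of 0.038 (adjusted p = 0.816).

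*VKORC1L1* (chromosome 7, 65873074 to 65959563) reduces vitamin K, whose hydroquinone form traps lipid radicals. It was the most abundant of the 10 genes by CPM and the closest between libraries, with 64.2 and 64.4 CPM in control and 65.2 and 65.5 CPM in knockout libraries. The groups did not overlap, yet the log2 fold change was 0.024 with a 95% interval from -0.076 to 0.12, and with GC and length trends removed it was -0.12 (adjusted p = 0.0379), so no direction can be given. Its paralog *VKORC1*, the enzyme of the clotting factor cycle, fell from 90.9 and 87.6 CPM to 72.7 and 71.7 CPM, by 0.31 on the log2 scale (adjusted p = 0.000218), and by 0.12 with those trends removed (adjusted p = 0.039). *GGCX*, the carboxylase that uses vitamin K hydroquinone, rose by 0.34 (adjusted p = 0.00034), and by 0.20 with those trends removed (adjusted p = 0.00932). *NQO1*, a quinone reductase, had 234 and 232 CPM against 246 and 248 CPM (log2 fold change 0.083, adjusted p = 0.0637). It passed with library size alone (0.14, adjusted p = 0.00667) and had 0.036 with GC and length trends removed (adjusted p = 0.356). Of 4 genes of this route beside *VKORC1L1*, 1 rose, 1 fell and 2 did not pass the test.

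The paralogs *MBOAT1* and *MBOAT2* encode membrane-bound O-acyltransferases of lysophospholipids. *MBOAT2* (chromosome 2, minus strand, 8852690 to 9003709) had 32.8 and 30.7 CPM in control and 21.5 and 19.9 CPM in knockout libraries. Each knockout library lay far below each control library, and *MBOAT2* fell by 0.61 on the log2 scale (SE 0.077, adjusted p = 0.000104), to 0.653 times the control level. This was the largest fall among the 10 genes. It lay close to the 1.5-fold threshold, and the call was lost with library size alone (-0.56). Without control replicate 1 (-0.57) or knockout replicate 2 (-0.56) the value also lay inside the threshold. With GC and length trends removed the fall was larger (-0.89, adjusted p = 2.3e-05). The adjusted p stayed at 0.00294 or below in every fit on all libraries. The 29 tested genes within 5 Mb had a median of 0.027, and 0 of them were lower than *MBOAT2*. *MBOAT1* (chromosome 6, 20099684 to 20212469) had 39.8 and 41.8 CPM against 38.9 and 36.8 CPM, without overlap, and a log2 fold change of -0.11 (95% interval -0.24 to 0.023, adjusted p = 0.149). With GC and length trends removed *MBOAT1* fell by 0.18 (adjusted p = 0.0275). The difference between the 2 paralogs was not tested. The 250 bases before the RefSeq start of *MBOAT2*, at chr2:9003685-9003934 on the minus strand, are shown because this gene alone was called. They hold 7 GC boxes (in capitals, both strands) in a stretch of 84.0% G and C. The GENCODE start lies within this stretch, so the GC box nearest the RefSeq start falls inside the gene as placed above.
*MBOAT2*: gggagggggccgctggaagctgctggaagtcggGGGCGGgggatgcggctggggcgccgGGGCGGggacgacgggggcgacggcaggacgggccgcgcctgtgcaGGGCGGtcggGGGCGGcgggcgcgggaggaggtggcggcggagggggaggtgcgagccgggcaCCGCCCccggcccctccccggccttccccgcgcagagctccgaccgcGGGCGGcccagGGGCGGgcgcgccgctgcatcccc
None of the promoters of *AIFM2*, *SPR* and *MBOAT2* holds an E-box (CACGTG, 6.34% of all promoters) or a CCAAT box (CCAAT, 32.0%). The promoters of *PDSS1* and *VKORC1L1*, which did not pass the main test, also hold neither. Of 8 defence genes with a RefSeq promoter, only *VKORC1L1* besides *AIFM2* had TGACNNNGC.

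Of 4 further genes of this route, 1 rose, 1 fell and 2 did not pass the test. *MBOAT7*, which acts on lysophosphatidylinositol, fell by 0.23 (adjusted p = 0.00158), but had -0.040 with GC and length trends removed (adjusted p = 0.459). *LPCAT3*, which instead adds polyunsaturated fatty acids, had a log2 fold change of 0.20 (adjusted p = 0.102), and passed with library size alone (0.25, adjusted p = 0.0465) and with the trends removed (0.27, adjusted p = 0.0391). *ESR1*, the oestrogen receptor known to raise the transcription of *MBOAT1*, was near the limit of detection, with 4 counts in each control library and 21 and 24 counts in the knockout libraries (adjusted p = 0.0187 by edgeR and 0.0849 by DESeq2), and its call was also lost with any 1 library left out. In the FSP1 route, *NMT1* and *NMT2*, whose enzymes attach the myristate that anchors FSP1 to membranes, had log2 fold changes of 0.029 (adjusted p = 0.561) and -0.29 (adjusted p = 0.0906), and *NMT2* passed with GC and length trends removed (-0.40, adjusted p = 0.027). *AIFM1*, the mitochondrial relative of *AIFM2*, fell by 0.16 (adjusted p = 0.015), but did not pass without knockout replicate 2 (adjusted p = 0.114), with library size alone (-0.11, adjusted p = 0.0685) or with no filter (adjusted p = 0.0531), and *AIFM3* had 17 to 26 counts and an adjusted p of 0.872.

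**Figure D3:**
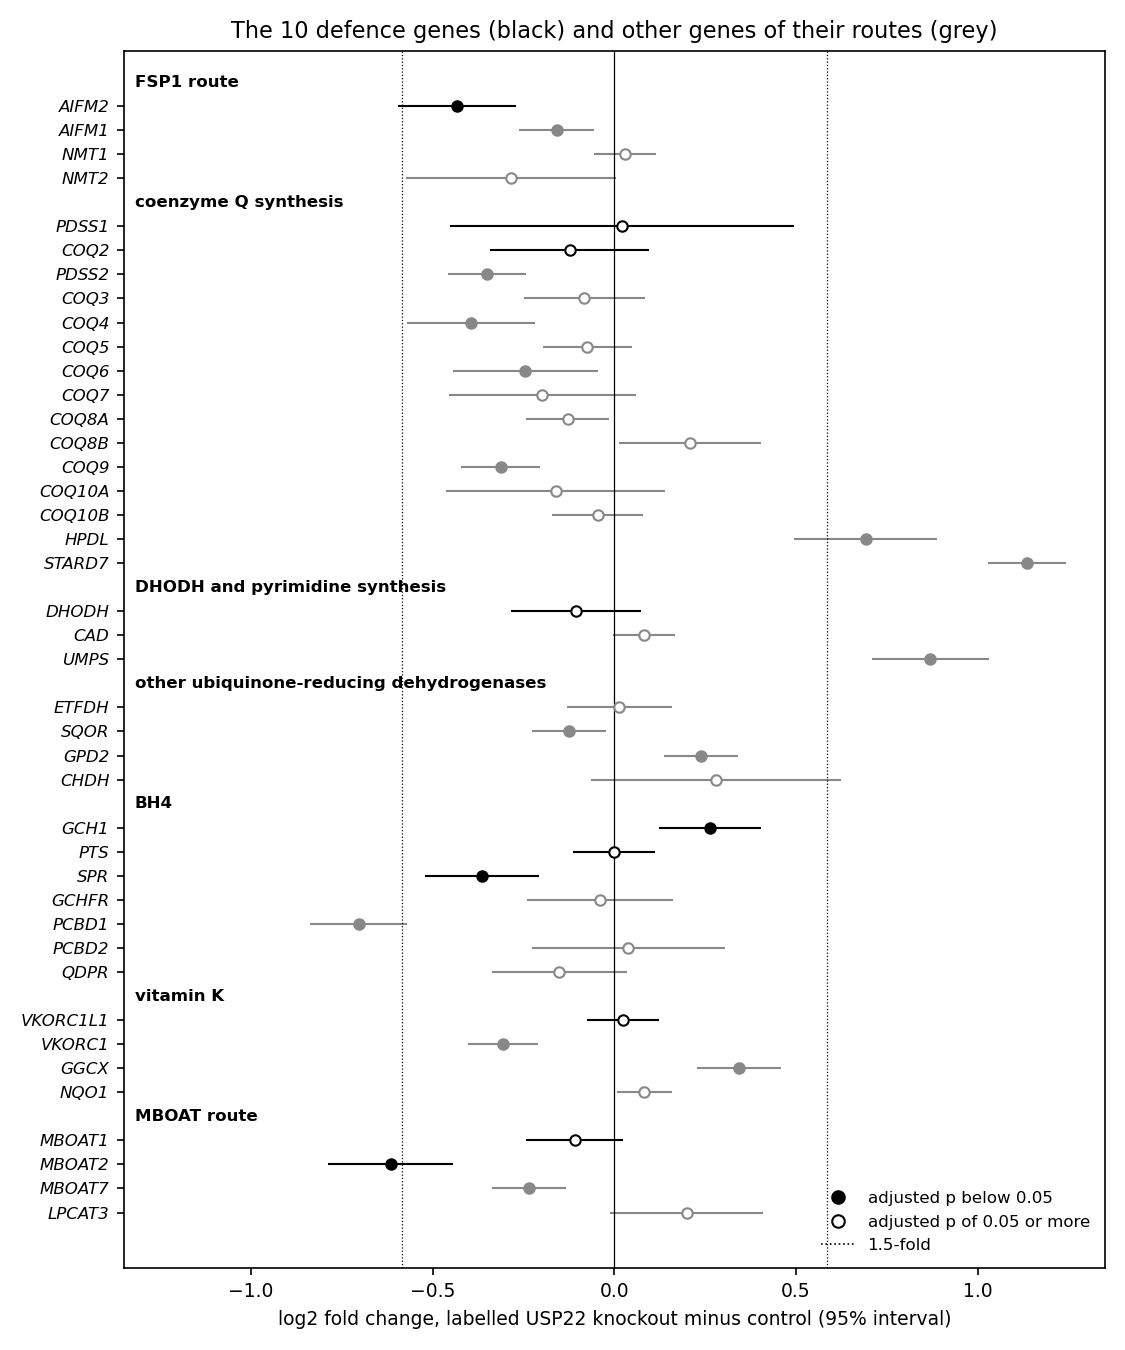
Log2 fold change (knockout minus control) with its 95% interval for the 10 defence genes (black) and other tested genes of their routes (grey). *ESR1* and *AIFM3*, whose intervals were too wide for the axis, are among those not drawn. Filled dots have an adjusted p below 0.05 and dotted lines mark 1.5-fold. *STARD7*, *UMPS* and *HPDL* lie beyond the upper line, and *PCBD1* and *MBOAT2* beyond the lower one.

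Of the 37 route genes other than the 10, 36 were tested, of which 4 were called higher (*STARD7*, *UMPS*, *HPDL* and *ESR1*) and 1 lower (*PCBD1*), or 13.9%, against 16.1% of all tested genes. Without the fold threshold 6 rose and 9 fell, or 41.7% against 52.5% of all tested genes, and their median log2 fold change was -0.043. For *STARD7*, *UMPS* and *HPDL*, the tested genes within 5 Mb had medians of -0.0014, -0.038 and -0.11, and these 3 genes lay 1.14, 0.91 and 0.80 above them. Beside these routes, *GPX4* fell by 0.44 (adjusted p = 2.39e-05), and by 0.22 with GC and length trends removed (adjusted p = 0.00416), and *SLC7A11*, the cystine importer, rose by 0.36 (adjusted p = 0.00029), but had 0.0058 with GC and length trends removed (adjusted p = 0.929).

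To compare genes with each other, CPM was divided by the length of the canonical transcript in kb. This scale takes that transcript as the one expressed, which was not tested, so the order between genes depends on these lengths. On this scale *PTS* was the most abundant of the 10 genes, with 62.5 ± 2.33 CPM per kb (SD, n = 2) in control libraries, followed by *SPR* (21.9 ± 0.238) and *AIFM2* (12.7 ± 0.00652). *GCH1* (11.3 ± 0.607), *COQ2* (11.1 ± 0.775) and *VKORC1L1* (10.6 ± 0.0288) followed, where *COQ2* overlapped with both others, and then *MBOAT1* (9.44 ± 0.316) and *DHODH* (4.94 ± 0.0159). *MBOAT2* (4.16 ± 0.192) and *PDSS1* (3.71 ± 1.21) were the lowest and overlapped. In the knockout libraries *GCH1* (13.6 ± 0.134) stood at rank 3, above *VKORC1L1* (10.7 ± 0.0316), while *AIFM2* (9.42 ± 0.862) stood at rank 6 and overlapped with *COQ2* (10.2 ± 0.797) and *MBOAT1* (8.75 ± 0.337). *MBOAT2* (2.72 ± 0.148) came last, below *PDSS1* (3.76 ± 0.576).

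**Figure D4:**
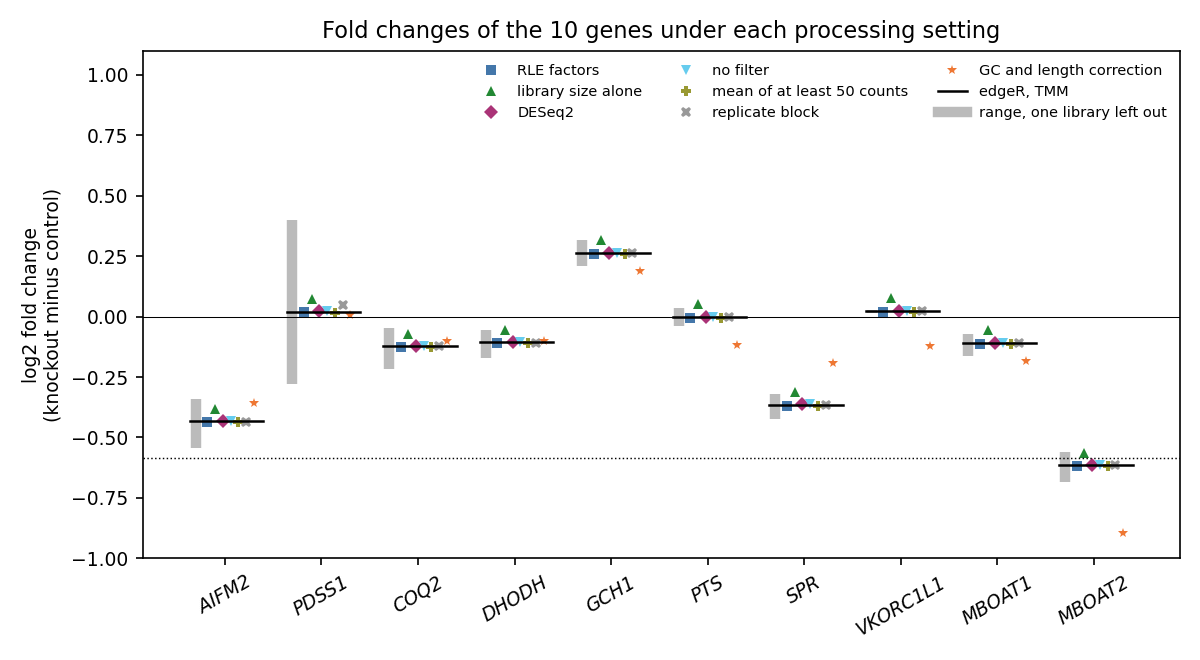
Log2 fold change (knockout minus control) of each gene with TMM factors in edgeR (black line), under each other setting (symbols) and over the 4 fits on 3 libraries (grey bar); the dotted line marks 1.5-fold lower. *AIFM2*, *SPR*, *MBOAT2* and *GCH1* keep their side of 0 in each, and the bar of *PDSS1* runs from -0.28 to 0.40.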

How the data were processed

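Reads were aligned by the authors with HISAT2 2.2.1 (hg38), sorted with Samtools and deposited as whole-number gene counts from StringTie 2.2.1, not divided by library size. The annotation, read length and strand setting are not given in the sources used here. The submitters' notes also name DESeq2 1.34.0. Columns were assigned by name, with 0 left over. The test was run in edgeR 4.0.16 under R 4.3.3 (TMM, glmQLFit and glmQLFTest, after filterByExpr at a minimum count of 10, Benjamini-Hochberg adjustment over 15150 genes). Every adjusted p is from this test unless another tool is named. Genes were called at an adjusted p under 0.05 with a change of 1.5-fold or more. CPM values were scaled with TMM factors. Standard errors were derived from the size of the log2 fold change and F (size over root F), and 95% intervals use the t distribution with the degrees of freedom of the fit. Replicates differed by more than sampling noise (mean chi-square per gene 7.86 and 8.25). Positions, lengths and GC content are from GENCODE 44 (25763 of 28278 symbols matched), promoters from RefSeq (8 of the 10 genes matched). Alternatives were DESeq2 1.42.0, library size alone, RLE factors, a filter at a mean of 50 counts or none at all, a block on replicate number, no fold threshold, leaving out each library, windows of 2 and 10 Mb, and removal of lowess trends (span 0.3) on GC content and transcript length, which 94.9% of tested genes had. The procedures were tested on simulated counts. The 10 genes, the lists and the tests were chosen with earlier results of these data known. The genes named are the 10, the route genes that passed the test with paralogs and others shown with their values, the 3 tested genes nearest to *AIFM2* on either side, *USP22*, *GPX4*, *SLC7A11* and the cell type markers. The values of 3 route genes are not reported here, though the counts and medians of the lists include them.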

Additional observations from a re-analysis of the deposited data

How the results depend on the processing

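Among the 10 genes, 1 was called lower and 0 higher. With library size alone 0 were called lower, and leaving out one library in turn gave 0 to 1 called lower. Without the fold threshold 1 was higher and 3 were lower, by the construction of that setting, as were 9 route genes, where 1 was called lower. With GC and length trends removed 0 route genes were called lower, since *PCBD1* came to lie inside 1.5-fold. In 70 comparisons of the 10 genes with other settings on all libraries, 65 gave the same direction and the same outcome of the test, and 4 changed direction. These were *PTS* with library size alone (0.051), DESeq2 (0.00021) and no filter (0.00016), and *VKORC1L1* after the GC and length correction (-0.12). *COQ10B* (0.0064) and *GCHFR* (0.013) changed direction with library size alone, and *GCHFR* (0.21) and *ETFDH* (-0.063) after the GC and length correction. With 1 library left out, where a lone library is assumed to vary like the other group, values ranged from -0.28 to 0.40 for *PDSS1*, -0.039 to 0.036 for *PTS*, -0.023 to 0.10 for *PCBD2*, -0.094 to 0.37 for *AIFM3*, -0.0061 to 0.029 for *ETFDH* and -0.0059 to 0.051 for *NMT1*. The cause was not tested. Libraries of the same replicate number did not deviate together (correlation of deviations 0.0369), and with the replicate block 1 of the 10 genes was called lower and 0 higher, while *SQOR* no longer passed (adjusted p = 0.0731). The median around *AIFM2* ranged from -0.50 to -0.36 over the settings run, the fits on 3 libraries and windows of 2 and 10 Mb included. For *PDSS1*, at 282 to 441 counts, the spread between replicates limits what could be detected.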
